A study of Homo sapiens with 32 samples.

Results

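The clustered protocadherin genes encode cell adhesion proteins whose combinations give single neurons distinct surface identities. They lie on chromosome 5 in an alpha, a beta and a gamma cluster, and here they are described through the chromatin loops called at them in 4 lists. The genes were the 53 protein-coding GENCODE genes on chromosome 5 with symbols starting PCDHA, PCDHB or PCDHG, of 19970 protein-coding genes in all. The loops were those with at least 1 anchor overlapping a window of 1.1 Mb, chr5:140600000-141700000 on hg38, which gave 68 of the 45629 loops. An anchor is either of the 5 kb segments that a loop joins.

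The lists come from in situ Hi-C, which ligates DNA segments that lie close together in the nucleus. They cover HEK293, an established human embryonic kidney line, as wild type and with the genotype eGFP-YAP, the transcriptional co-activator YAP joined to a green fluorescent protein. Each genotype was left untreated (control) or exposed to 200 mM sorbitol for 1 h, an osmotic stress that draws water out of cells. The series' design text speaks of serum starvation of the eGFP-YAP cells, and how the wild-type cells were fed before sorbitol is not given in the sources used here. The labels do not say how the YAP fusion was introduced or whether the line is 1 clone, and the growth protocol calls the cells HEK293T. The labels name 3 replicates per wild-type and 4 per eGFP-YAP condition, but each condition has 1 pooled list with no replicate. No difference below therefore has a replicate check or a test. The names of the lists also differ between lines in a source word, so line and source cannot be told apart. Intervals are 95% intervals for counting error only. The lists hold no expression values, so the identity of the cells could not be checked against markers.

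Each alpha and gamma gene has its own promoter and a large variable first exon, spliced to constant exons shared by its cluster, whereas each beta gene is carried on a single exon. CTCF, a DNA-binding protein that halts the loop-extruding cohesin complex in an orientation-dependent way, is known to bind at many of the promoters and first exons and at distant enhancers. For the alpha cluster these enhancers include one downstream of its last exon, and for the beta and gamma clusters they lie beyond the gamma genes. A contact between a promoter and such an enhancer is held to accompany the choice of the gene to be transcribed. The alpha cluster had 15 genes over 226 kb (chr5:140786136-141012347), the beta cluster 16 over 198 kb (chr5:141051374-141249365) and the gamma cluster 22 over 182.5 kb (chr5:141330514-141512977). All are on the plus strand in the order alpha, beta, gamma.

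The sequences shown beside the loops are matches to the CTCF core motif, sought on either strand and allowing 1 mismatch. The following were chosen because they lie in coding exons of the alpha genes or in anchors of the loops described next. Capitals mark the 14 letters of the match, and each is written 5′ to 3′ on the strand of the match.
PCDHA4 coding exon: ctcggtttCCACTAGAGGGCGCctcggatg
PCDHA9 coding exon: ctcggtttCCACTAGAGGGCGCgtccgatg
PCDHA11 coding exon: cgcgttttCCACTAGAGGGAGCttctgatg
PCDHA13 coding exon: ctcgatttCCACTAGATGGCGCatccgatg
rightmost bin of the alpha loops, first match: atctttaaCCAGCAGAGGGCGAgtcgactg
rightmost bin of the alpha loops, second match: ctcatctgCCACCAGGTGGCAGgtggatcc
DIAPH1 intron, nearer to the gamma genes: atgctcagCCAGCAGGTGGCGCtgggagca
DIAPH1 intron, farther from the gamma genes: gctttcagCCACCAGATGGCACatggatcc
The PCDHA4, PCDHA9, PCDHA11 and PCDHA13 matches lie on the plus strand at chr5:140807644-140807657, chr5:140848952-140848965, chr5:140869560-140869573 and chr5:140882725-140882738. The other matches lie on the minus strand, at chr5:141040361-141040374 and chr5:141041370-141041383 outside protein-coding genes, and at chr5:141524892-141524905 and chr5:141564393-141564406 in introns of DIAPH1. The alpha cluster held 10 matches, 10 of them on the plus strand and 10 in a coding exon of one of the genes PCDHA4 to PCDHA13, 1 per gene. They began 590 to 1377 bases after the annotated gene start, and only those of PCDHA9 and PCDHA11 lay in a loop anchor. PCDHA7 and PCDHA9 shared all letters of the stretch shown for PCDHA9. A match is a description of sequence and does not show that CTCF was bound.

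The loops fell into separate systems for alpha and for beta with gamma. Of the 68 loops, 29 had an anchor overlapping a cluster and 39 lay in the gaps or flanks. All 8 loops of the alpha genes ended within the same 15 kb, chr5:141030001-141045000, in the gap between alpha and beta, and they came from all 4 lists. Of the remaining 21 cluster loops, 14 ran from a beta gene (8 loops) or a gamma gene (6 loops) into DIAPH1, the gene of a formin that assembles actin filaments, at chr5:141515001-141565000. DIAPH1 starts on the other side of these anchors and is read towards the gamma cluster, and no anchor held its start. A further 5 loops joined beta to gamma, 1 joined PCDHB3 to another place in the beta cluster, and 1 joined the gap between beta and gamma to gamma. No loop of any list joined alpha to beta or gamma (0 of 29).

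**Figure D1:**
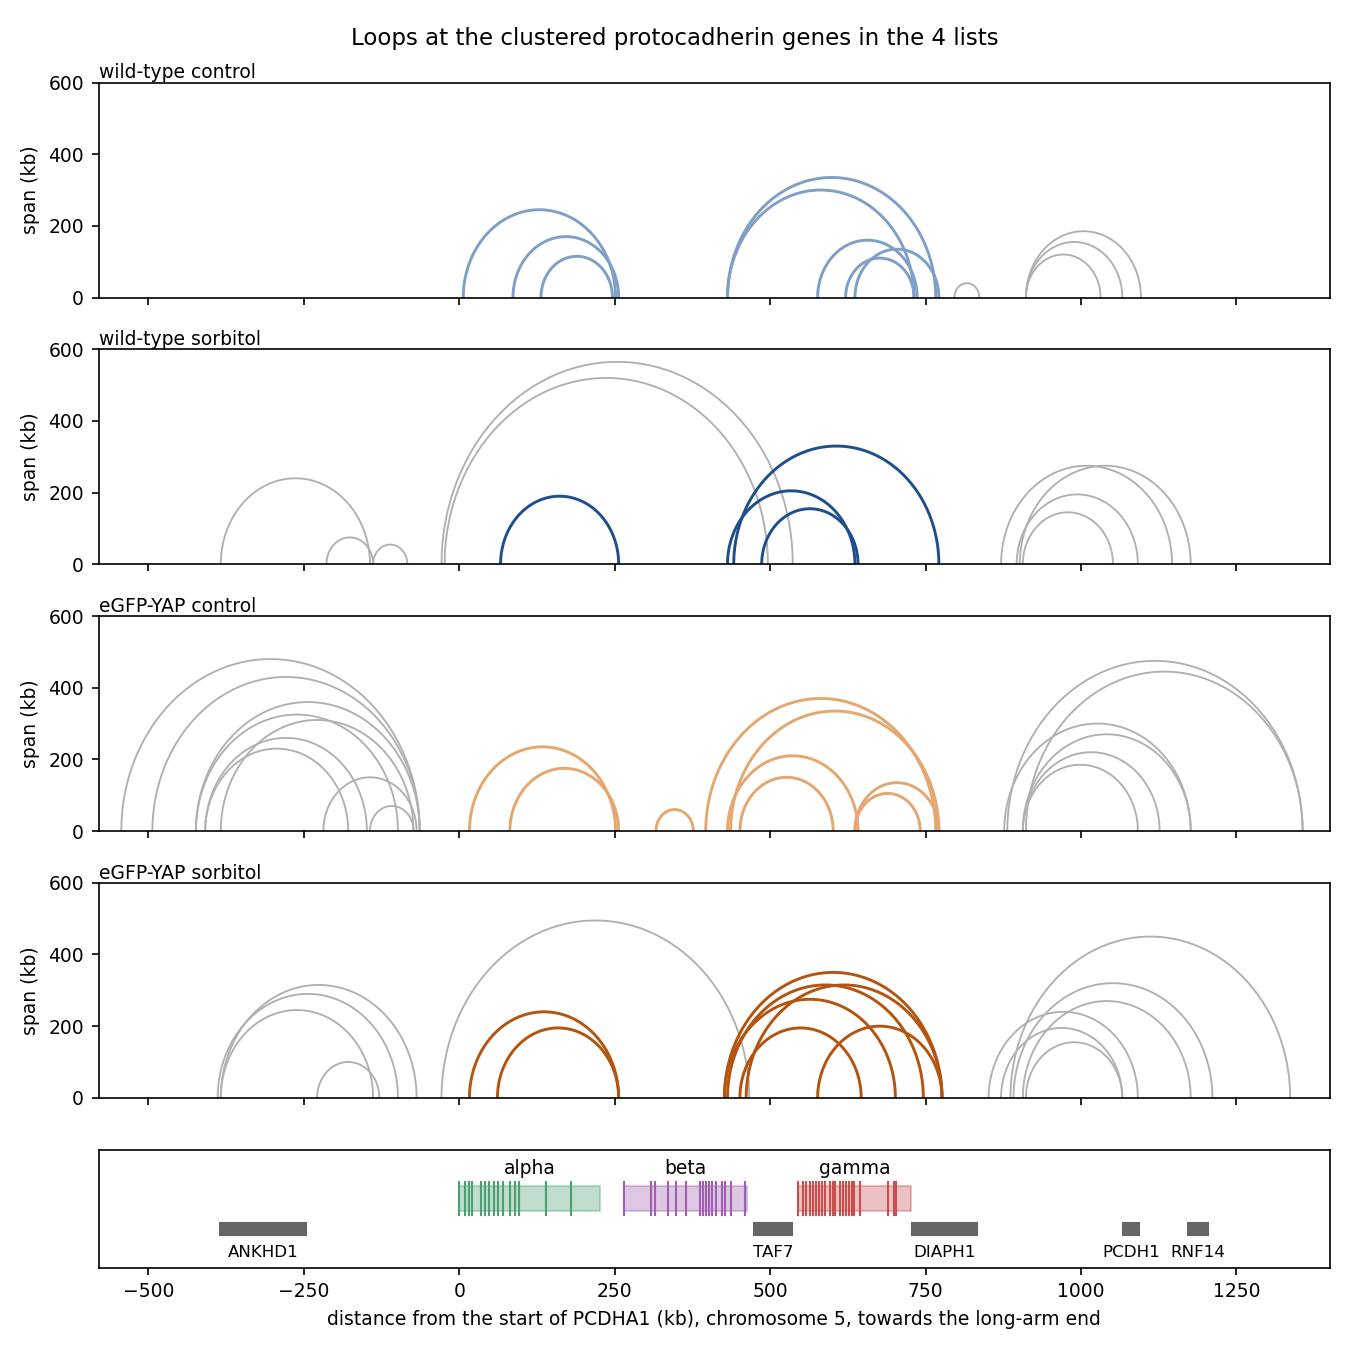
Arcs show the 68 loops in the 4 lists, with distance along chromosome 5 from the start of PCDHA1 (kb) on the horizontal axis and arc height equal to loop span (kb). Coloured arcs are the 29 loops with an anchor overlapping a cluster and grey arcs the other 39. The bottom panel shows the clusters, with a tick at each gene start, and neighbouring genes; the 8 alpha arcs end at 1 place between alpha and beta.

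The alpha loops differed between lists in the gene at their left anchor more than in their right anchor. In wild-type control there were 3. The first joined chr5:140790001-140795000, which holds the start of PCDHA2, to chr5:141035001-141040000. Its score percentile, the rank of the caller's peak score among all loops of the same list, was 13.9. The second joined chr5:140870001-140875000, between the starts of PCDHA11 and PCDHA12, to chr5:141040001-141045000, with a percentile of 76.1. The third joined chr5:140915001-140920000, between the starts of PCDHA13 and PCDHAC1, to chr5:141030001-141035000 with a percentile of 14.8. Of these 3, the second thus ranked highest.

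Wild-type sorbitol had 1 alpha loop, from chr5:140850001-140855000, between the starts of PCDHA9 and PCDHA10, to chr5:141040001-141045000, with a percentile of 52.0. In eGFP-YAP control one loop joined the start of PCDHA3 (chr5:140800001-140805000) to chr5:141035001-141040000, with a percentile of 65.5. The other joined the start of PCDHA11 (chr5:140865001-140870000) to chr5:141040001-141045000, with a percentile of 88.6. Both eGFP-YAP sorbitol loops ended at chr5:141040001-141045000. They came from the start of PCDHA3 (chr5:140800001-140805000, percentile 69.1) and from that of PCDHA9 (chr5:140845001-140850000, percentile 89.8).

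In both lines, the highest-ranked alpha loop ended at the same right anchor with and without sorbitol. Its left anchor lay around PCDHA11 in control and around PCDHA9 in sorbitol. In wild-type sorbitol it was the only alpha loop. The eGFP-YAP anchors held the starts of PCDHA11 and PCDHA9. The wild-type control anchor lay 1.82 kb past the start of PCDHA11 and 0.302 kb before that of PCDHA12, and the wild-type sorbitol anchor 2.23 kb past the start of PCDHA9 and 0.883 kb before that of PCDHA10. The span of this loop was 170 kb in wild-type control and 190 kb in wild-type sorbitol. In eGFP-YAP it was 175 kb in control and 195 kb in sorbitol. These left anchors matched between the 2 control lists, and between the 2 sorbitol lists, at the matching distance of 10 kb. In the whole lists, 40.2% of wild-type control and 24.2% of wild-type sorbitol loops were called in the other line's list of the same treatment. Of all control loops, 7.81% (wild type) and 9.28% (eGFP-YAP) were called again with sorbitol. Another alpha position, with its left anchor at PCDHA2 or PCDHA3, was called in both controls and in eGFP-YAP sorbitol. With 1 list per condition, the spread of the left anchor of the highest-ranked loop between replicates is not known. The eGFP-YAP anchor at PCDHA9 held the exonic match printed above for that gene, with no mismatch, and the eGFP-YAP control anchor at PCDHA11 held the match of that gene, with 1 mismatch. The wild-type anchors, 5 kb to the right, held none. The shared right anchor, the end of 5 of the 8 alpha loops, held 3 matches, 2 on the minus strand and 1 on the plus strand that overlaps the exact minus-strand match. The alpha exons therefore carried plus-strand letters and that right anchor mostly minus-strand letters, the orientation in which motifs point towards each other. Of the alpha exon matches, however, only those of PCDHA9 and PCDHA11 lay in an anchor, each in 1 list. The left anchors of all other alpha loops held no match.

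Among beta and gamma loops, 1 position was present in all 4 lists, linking the end of the beta cluster around PCDHB13 and PCDHB14 to an intron of DIAPH1. In wild-type control it joined chr5:141215001-141220000, within PCDHB13, to chr5:141550001-141555000, with a percentile of 80.1. In wild-type sorbitol it joined chr5:141225001-141230000, within PCDHB14, to chr5:141555001-141560000, with a percentile of 80.5. In eGFP-YAP control it ran from the start of PCDHB14 (chr5:141220001-141225000) to chr5:141555001-141560000, with a percentile of 73.9. In eGFP-YAP sorbitol it ran from the start of PCDHB13 (chr5:141210001-141215000) to chr5:141560001-141565000, with a percentile of 92.6. It lay in the upper part of every list by score. The 4 loops were joined through neighbours within 10 kb, and the outermost left anchors, those of the sorbitol lists, lay 15 kb apart.

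Among the clustered genes, PCDHGA11 had its start at an anchor in the most lists, in both controls and in wild-type sorbitol. In both controls it was joined to DIAPH1 at chr5:141555001-141560000, from chr5:141420001-141425000, with a percentile of 60.8 in wild type and 76.5 in eGFP-YAP. This loop had no counterpart within 10 kb in the sorbitol lists. Of all control loops, only 7.81% (wild type) and 9.28% (eGFP-YAP) were called again with sorbitol at that distance. In wild-type sorbitol the same anchor was joined to the beta cluster, at chr5:141215001-141220000 within PCDHB13, with a percentile of 45.5. A match of that beta-to-gamma loop was present in eGFP-YAP control, beside the loop to DIAPH1. Its right anchor there was chr5:141425001-141430000 and its percentile 23.9.

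The other loops into DIAPH1 each appeared in 1 list. In wild-type control, PCDHB13 (chr5:141215001-141220000, percentile 61.0) and the start of PCDHGB6 (chr5:141405001-141410000, percentile 58.5) were joined to chr5:141515001-141520000 at the 3′ end of DIAPH1. The start of PCDHGA5 (chr5:141360001-141365000, percentile 18.1) was joined to the next bin, chr5:141520001-141525000, which holds the DIAPH1 match nearer to the gamma genes. This bin also holds a plus-strand match with 1 mismatch. In eGFP-YAP control, the start of PCDHB16 was joined to chr5:141550001-141555000 from chr5:141180001-141185000, the highest-ranked cluster loop of that list with a percentile of 89.1. That list also joined PCDHGA11 to chr5:141525001-141530000, with a percentile of 68.1.

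In eGFP-YAP sorbitol, 3 loops from the starts of PCDHB13, PCDHB15 (chr5:141245001-141250000) and PCDHGA5 (chr5:141360001-141365000) ended in chr5:141560001-141565000. Their percentiles were 92.6, 91.4 and 73.4. This bin holds the exact minus-strand match in DIAPH1 farther from the gamma genes, and it was an anchor in no other list. The adjoining bin, chr5:141555001-141560000, was however an anchor in each of the other lists. PCDHB13 was also joined to chr5:141530001-141535000, with a percentile of 64.2. The start of PCDHGA5 was thus an anchor in wild-type control and in eGFP-YAP sorbitol, with DIAPH1 partners 40 kb apart. In all lists, the loops into DIAPH1 held no motif match at their beta or gamma anchors. At their DIAPH1 end, only chr5:141520001-141525000 and chr5:141560001-141565000 held a match.

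Loops between beta and gamma ranked lower. In eGFP-YAP sorbitol, PCDHB13 was joined to the start of PCDHGC5, a C-type gamma gene, at chr5:141485001-141490000, with a percentile of 10.6. In the same list chr5:141235001-141240000, between PCDHB14 and PCDHB15, was joined to the start of PCDHGA12 at chr5:141430001-141435000, with a percentile of 37.4. The eGFP-YAP control loop from chr5:141235001-141240000 to the start of PCDHGB4 (chr5:141385001-141390000) had a percentile of 0.0738, near the bottom of its list. The loop from the start of PCDHB3 (chr5:141100001-141105000) to chr5:141160001-141165000 in that list had 16.4. The wild-type sorbitol loop from chr5:141270001-141275000, within TAF7, to gamma at chr5:141425001-141430000 had 22.2. All loops between beta and gamma, within beta, or from the gap to gamma lay below the median score of their list, whereas 13 of the 14 loops into DIAPH1 lay above it, the exception being that of PCDHGA5 in wild-type control.

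**Figure D2:**
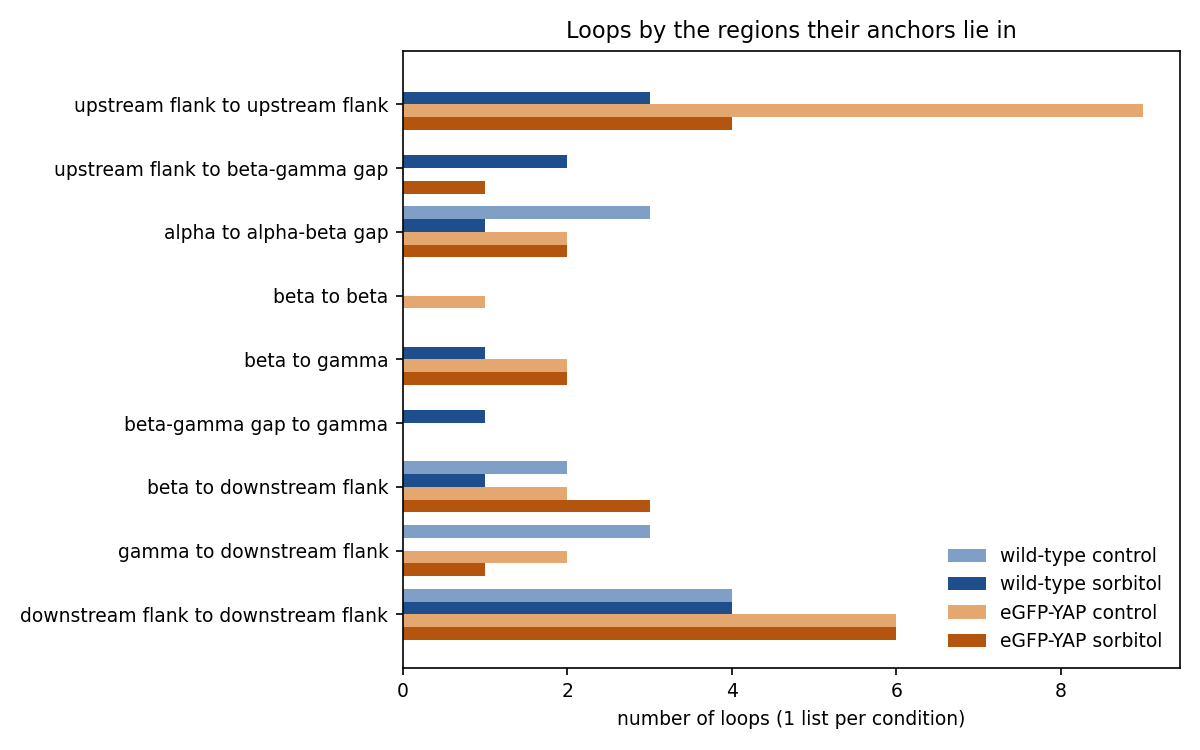
Bars give the number of loops (horizontal axis) for each pair of regions in which the anchor centres lie, 1 bar for each of the 4 lists. All 8 alpha loops go to the gap between alpha and beta, and loops from the upstream flank to the gap between beta and gamma number 2 in wild-type sorbitol, 1 in eGFP-YAP sorbitol and 0 in both controls.

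The sorbitol lists held 3 long loops that passed over the alpha and beta genes, and the control lists held 0. Most sorbitol loops of the whole lists also had no control partner within 10 kb (79.9% in wild type, 68.4% in eGFP-YAP). In wild-type sorbitol, chr5:140755001-140760000, upstream of the alpha cluster, was joined over 565 kb to chr5:141320001-141325000, which holds the start of TAF7, a subunit of the general transcription factor TFIID. Its percentile was 75.1. A neighbour joined chr5:140760001-140765000 to chr5:141280001-141285000 within TAF7 over 520 kb, with a percentile of 69.7. In eGFP-YAP sorbitol, chr5:140755001-140760000 was joined over 495 kb to chr5:141250001-141255000, at the end of the beta cluster, with a percentile of 74.8. These loops shared a left side but not a right anchor, so none matched another within 10 kb. The left anchors held no protein-coding gene and no motif match.

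The flanks of the window held the remaining loops. With both anchors upstream of the alpha cluster there were 0 loops in wild-type control, 3 in wild-type sorbitol, 9 in eGFP-YAP control and 4 in eGFP-YAP sorbitol. The highest-ranked of the eGFP-YAP control loops joined the start of SLC4A9, a membrane transporter gene, at chr5:140360001-140365000 to chr5:140720001-140725000, with a percentile of 88.3. The longest, of 480 kb, ended in the same bin from chr5:140240001-140245000 within CYSTM1, with a percentile of 82.1. The start of ANKHD1, which encodes an ankyrin repeat protein, was an anchor (chr5:140400001-140405000) in 3 lists. Its loop to chr5:140710001-140715000 in eGFP-YAP control (percentile 45.4) matched one to chr5:140715001-140720000 in eGFP-YAP sorbitol (90.8). Its loop to chr5:140640001-140645000 in wild-type sorbitol (50.7) matched one to chr5:140645001-140650000 in eGFP-YAP sorbitol (22.1). That last bin holds the starts of NDUFA2, a subunit of mitochondrial complex I, and of IK, and both starts were in an anchor of each sorbitol list and of no control list. The adjoining bin, chr5:140640001-140645000, was however an anchor in eGFP-YAP control. Of all genes, 12.7% (wild type) and 13.7% (eGFP-YAP) had their start in a sorbitol anchor, and 8.28% and 13.1% in a control anchor. In wild-type sorbitol, the NDUFA2 and IK bin was joined to chr5:140570001-140575000 (13.1) and to chr5:140700001-140705000 within ZMAT2 (20.5). Of that pair, the loop to ZMAT2 matched one in eGFP-YAP control, from chr5:140640001-140645000 to chr5:140710001-140715000 (12.3). The other upstream loops of eGFP-YAP sorbitol joined chr5:140395001-140400000 to chr5:140685001-140690000 within HARS1 (20.1) and the start of SRA1 at chr5:140555001-140560000 to chr5:140655001-140660000 within IK (26.8).

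With both anchors downstream of the gamma cluster there were 4, 4, 6 and 6 loops, in the order wild-type control, wild-type sorbitol, eGFP-YAP control and eGFP-YAP sorbitol. The most often called positions joined the segment upstream of ARAP3 to PCDH1 or RNF14. PCDH1 is a protocadherin gene outside the clusters, and RNF14 encodes a ubiquitin ligase. The loop to RNF14, ending at chr5:141960001-141965000, was the highest-ranked loop of the window in wild-type sorbitol (from chr5:141685001-141690000, 90.3) and in eGFP-YAP sorbitol (from chr5:141690001-141695000, 94.2). In eGFP-YAP control it had a percentile of 68.9, and wild-type control held no match. The eGFP-YAP anchors of this loop carried exact matches that point towards each other, shown for that reason with the motif in capitals.
left anchor, plus strand: acatatgtCCACTAGATGGCGCcccaacac
right anchor, minus strand: gcctttggCCACCAGATGGCGCtctggaaa
They lie at chr5:141692241-141692254, outside protein-coding genes, and at chr5:141960897-141960910, in introns of RNF14 and PCDH12.

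The loop to PCDH1 was called in 3 lists. It ran from chr5:141695001-141700000 to chr5:141880001-141885000 in wild-type control (42.1), from the start of ARAP3 (chr5:141680001-141685000) to the start of PCDH1 (chr5:141875001-141880000) in wild-type sorbitol (35.1), and from chr5:141690001-141695000 to the start of PCDH1 in eGFP-YAP control (37.5). A loop from chr5:141695001-141700000 to chr5:141850001-141855000 within PCDH1 was in wild-type control (26.9) and eGFP-YAP sorbitol (35.9). The start of PCDH1 was also joined in eGFP-YAP sorbitol to chr5:141635001-141640000 (31.3), which holds the starts of HDAC3, a histone deacetylase gene, and RELL2. In eGFP-YAP control, the highest-ranked downstream loop joined chr5:141695001-141700000 to chr5:142140001-142145000 within NDFIP1, with a percentile of 84.5. The remaining sorbitol loops of this flank ran from in or near ARAP3. In wild type they reached DELE1 (chr5:141655001-141660000 to chr5:141930001-141935000, 27.2) and chr5:141835001-141840000 (from chr5:141690001-141695000, 21.1). In eGFP-YAP they reached PCDH1 (chr5:141655001-141660000 to chr5:141850001-141855000, 36.0), NDFIP1 (chr5:141670001-141675000 to chr5:142120001-142125000, 1.02) and GNPDA1 (chr5:141675001-141680000 to chr5:141995001-142000000, 14.6).

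The number of loops was close to equal between control and sorbitol at this locus, whereas the whole lists were much shorter with sorbitol. Wild-type control had 12 loops and wild-type sorbitol 13, a ratio of 1.08 (exact interval 0.456 to 2.60). The rest of chromosome 5 had 780 and 238, a ratio of 0.305 (0.263 to 0.353). eGFP-YAP control had 24 loops and eGFP-YAP sorbitol 19, a ratio of 0.792 (0.410 to 1.51), against 1102 and 285 on the rest of chromosome 5, a ratio of 0.259 (0.226 to 0.295). In both lines the interval of the window lay above that of the rest of the chromosome. Whether this reflects the loops of the cells or the depth and calling of the lists was not tested. The window was dense in gene starts, with one in 29.1% of its 5 kb bins against 2.20% on chromosome 5. Anchors with a gene start rose with sorbitol in the whole lists, from 5.67% to 19.7% (wild type) and from 7.64% to 23.3% (eGFP-YAP). The ratios here and below were not matched for gene density, and its bearing on them was not tested.

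Among all windows of the same length laid end to end over the genome, 916 had at least 10 wild-type control loops, with a median ratio of 0.286. Of these, 42 (4.59%) had a ratio at or above that of the protocadherin window. In eGFP-YAP 1306 windows had at least 10 control loops, with a median of 0.231, and 70 (5.36%) were at or above. The locus was thus in the upper part of the distribution in both lines, without being its extreme.

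**Figure D3:**
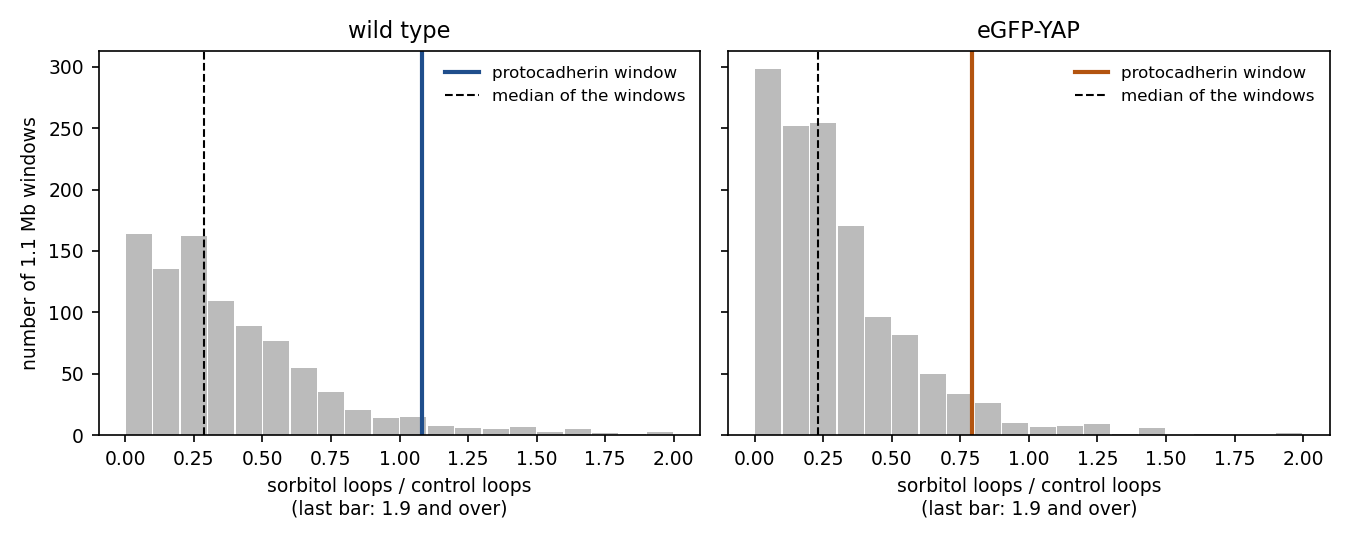
Histograms show the ratio of sorbitol to control loops (horizontal axis) over genome windows of 1.1 Mb with at least 10 control loops, for wild type (916 windows) and eGFP-YAP (1306 windows). The coloured line marks the protocadherin window (1.08 and 0.792) and the dashed line the median (0.286 and 0.231).

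In wild type, loops at the genes themselves fell in number with sorbitol and the other loops of the window rose, with overlapping intervals of the ratios. In eGFP-YAP both fell. Loops with an anchor overlapping a cluster numbered 8 in wild-type control and 4 in wild-type sorbitol, a ratio of 0.500 (0.110 to 1.87), an interval that contains the ratio of the rest of the chromosome. The other wild-type loops numbered 4 and 9, a ratio of 2.25 (0.628 to 10.0). In eGFP-YAP the cluster loops numbered 9 and 8, a ratio of 0.889 (0.298 to 2.60). The other eGFP-YAP loops numbered 15 and 11, a ratio of 0.733 (0.305 to 1.71). These other loops lay in the flanks, except those from the upstream flank to the gap between beta and gamma, 2 in wild-type and 1 in eGFP-YAP sorbitol. In wild type the even count therefore came from loops with no anchor overlapping a cluster. The eGFP-YAP cluster interval lay just above that of the rest of the chromosome but overlapped that of the whole list (ratio 0.294, 0.285 to 0.303). The cluster intervals of the lines overlapped. When only the top of each control list by score was kept, to the length of its sorbitol list, the window had 2 control loops in wild type and 7 in eGFP-YAP.

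Equal numbers did not mean the same positions. Of the 12 wild-type control loops, 1 was called again with sorbitol within 10 kb at both anchors, 8.33% (Wilson interval 1.49 to 35.4), against 7.81% of all loops of that list. Of the 24 eGFP-YAP control loops 4 were called again, 16.7% (6.68 to 35.9), against 9.28% of the whole list. Both shares lay near the whole list within their intervals. With a distance of 25 kb, 5 of 12 and 10 of 24 were called again, 41.7% in both lines (19.3 to 68.05 and 24.5 to 61.2). The whole lists had 14.5% and 13.8%. The wider distance thus raised the share at this locus more than that of the whole lists. The highest-ranked alpha loops described above are among the loops it joined. The locus had more sorbitol loops per control loop than the whole lists (1.08 and 0.792 against 0.389 and 0.294). The share called again is not independent of that ratio.

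Seen from sorbitol, 12 of the 13 wild-type loops had no control partner, 92.3% (66.7 to 98.6), against 79.9% of the list. In eGFP-YAP 15 of 19 had none, 78.9% (56.7 to 91.5), against 68.4%. Both intervals contain the share of the whole list. At 25 kb the counts were 9 of 13 in wild type, 69.2%, against 62.8% of the list, and 7 of 19 in eGFP-YAP, 36.8%, against 53.7%.

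Between lines, eGFP-YAP control held 6 of the 12 wild-type control loops, 50% (25.4 to 74.6), against 40.2% of the list. For wild-type sorbitol it was 3 of 13 in eGFP-YAP sorbitol, 23.1% (8.18 to 50.3), against 24.2%. For eGFP-YAP control 5 of 24 were called in wild type, 20.8% (9.25 to 40.5), against 32.2%, and for eGFP-YAP sorbitol 3 of 19, 15.8% (5.52 to 37.6), against 25.7%. At 10 kb the intervals of all 4 contain the shares of their lists. At 25 kb the counts were 8 of 12 (66.7%), 8 of 13 (61.5%), 6 of 24 (25%) and 10 of 19 (52.6%) in the order of lists given above, against 56.5%, 35.7%, 45.4% and 37.7% of the lists. With identical anchors no sorbitol loop was called in the other line. The sorbitol shares thus moved from below their lists to above them with the matching distance. Grouped by position among themselves, the 68 loops made 51 positions, of which 39 were in 1 list, 8 in 2 lists, 3 in 3 lists and 1 in all 4. Of the 39, the wild-type control loop from chr5:141695001-141700000 to chr5:141815001-141820000 also had a partner in eGFP-YAP control whose anchors lay just outside the window.

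Loop span and score varied widely within each list. The span had a median of 157.5 kb in wild-type control (range 40 to 335 kb) and 205 kb in wild-type sorbitol (55 to 565 kb). In eGFP-YAP it was 247.5 kb in control (60 to 480 kb) and 270 kb in sorbitol (100 to 495 kb). The intervals of these medians overlapped between control and sorbitol, 115 to 245 against 145 to 330 kb in wild type and 175 to 335 against 195 to 315 kb in eGFP-YAP. The median score percentiles were 34.5 and 45.5 in wild-type control and sorbitol, and 50.6 and 37.4 in eGFP-YAP. Loops with an anchor overlapping a cluster had medians of 59.7, 48.7, 68.1 and 71.3 in the order of lists given above. The other loops of the window had 25.9, 35.1, 45.4 and 31.3. The cluster loops thus had the higher median in each of the 4 lists.

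Loop anchors held the start of a protocadherin gene for 15 of the 53 genes in at least 1 list, 28.3% (17.97 to 41.6), against 32.8% of all 19970 protein-coding genes. By list the counts were 4, 1, 7 and 7, or 7.55%, 1.89%, 13.2% and 13.2%, against 8.28%, 12.7%, 13.1% and 13.7% of all genes. The shares lay near those of all genes except in wild-type sorbitol, where the interval (0.334 to 9.94) lay below the share of all genes. In wild-type control these were PCDHA2, PCDHGA5, PCDHGB6 and PCDHGA11. In wild-type sorbitol it was PCDHGA11 alone. eGFP-YAP control had 7, namely PCDHA3, PCDHA11, PCDHB3, PCDHB14, PCDHB16, PCDHGB4 and PCDHGA11. eGFP-YAP sorbitol also had 7, namely PCDHA3, PCDHA9, PCDHB13, PCDHB15, PCDHGA5, PCDHGA12 and PCDHGC5. PCDHA3, PCDHGA5 and PCDHGA11 were the 3 genes found in more than 1 list, and no gene was found in all 4. By group they were 4 of 13 alternate alpha genes, 0 of the 2 alpha C-type genes PCDHAC1 and PCDHAC2, 5 of 16 beta genes, 3 of 12 gamma A, 2 of 7 gamma B and 1 of 3 gamma C-type genes. The start of 31 genes lay within 5 kb of an anchor of some list.

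**Figure D4:**
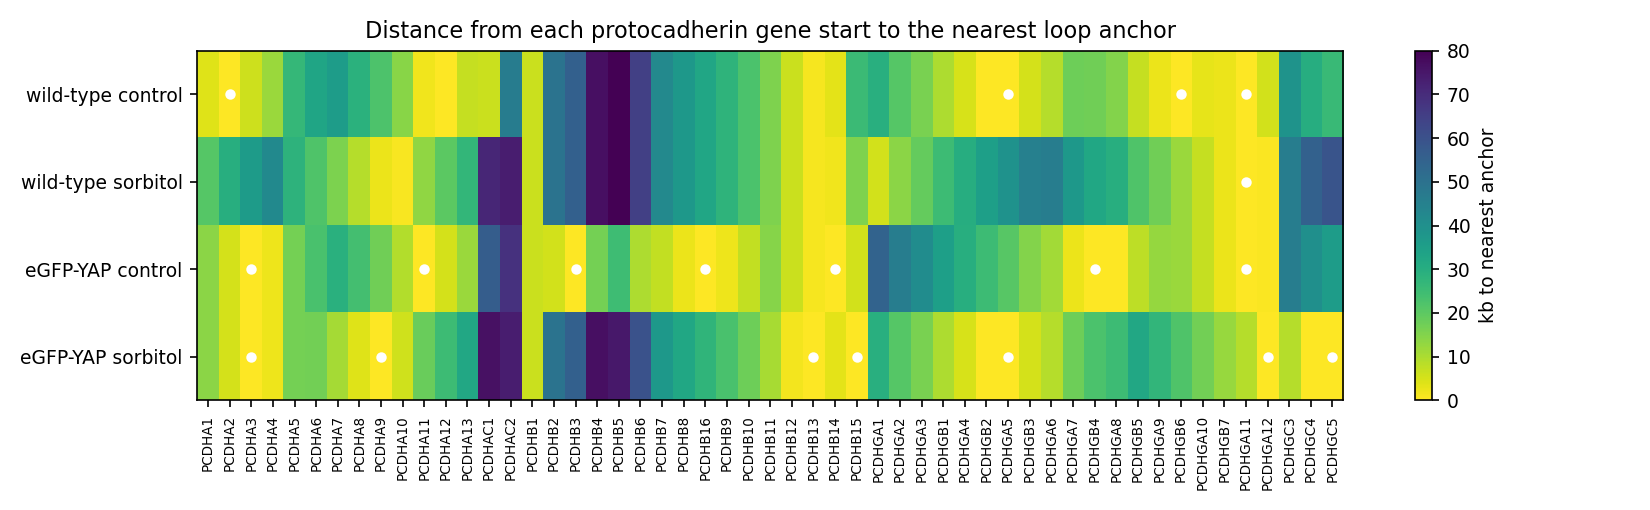
Colour shows the distance (kb) from the start of each of the 53 genes, in chromosomal order, to the nearest loop anchor in each of the 4 lists, and white dots mark starts inside an anchor. Dots are sparse (4, 1, 7 and 7 genes), and PCDHGA11 has one in 3 lists.

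Anchors with the start of any protein-coding gene made up 20% (4 of 20), 24.0% (6 of 25), 29.7% (11 of 37) and 37.5% (12 of 32) of the distinct anchors at the locus, in the order of lists given above. The whole lists had 5.67%, 19.7%, 7.64% and 23.3%. The locus is dense in gene starts, with one in 29.1% of its 220 bins of 5 kb against 2.20% of the bins of chromosome 5. The share at the anchors thus lay on either side of that of the bins of the window. Some of these anchors, also counted in the motif shares that follow, lay outside the window. For loops with both anchors in the window the shares with a gene start were 25%, 21.4%, 38.9% and 50%, again on either side. CTCF motif matches were in 15.0% (3 of 20), 24.0% (6 of 25), 29.7% (11 of 37) and 28.1% (9 of 32) of the anchors, against 23.2%, 20.9%, 30.1% and 27.7% in the whole lists and 14.5% of the bins of the window. The Wilson interval in wild-type control (5.24 to 36.0) contains the values of the other lists.

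Few loops could be scored for motif orientation, since both anchors need matches of a single strand. None could be scored in the wild-type lists, and 2 of 2 in eGFP-YAP control and 1 of 1 in eGFP-YAP sorbitol had motifs pointing towards each other. With no mismatch allowed, 2 of 2 pointed towards each other in eGFP-YAP sorbitol, the loop to RNF14 and that from PCDHA9 to the rightmost bin of the alpha loops. The window held 37 matches, 25 on the plus and 12 on the minus strand. In gamma 4 were on the plus and 2 on the minus strand, and in beta 2 were on the plus strand.

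The promoters of the genes were read from RefSeq (GRCh38.p14), in windows of 300 bases from 250 before the start, and 47 of the 53 genes had one. PCDHA3, PCDHA13, PCDHB6, PCDHB11, PCDHGA12 and PCDHGC5 were not matched. Protocadherin promoters are known for a conserved element around the letters CGCT. The elements of some of the genes found at anchors are printed to show how the clusters differ. Capitals mark CGCT, taken as the occurrence farthest from the start within the last 100 bases before it, on the strand of the gene.
PCDHA2: tccttttagccacatgatgtCGCTgtccac
PCDHA11: cagttttaggcgcaaggtgtCGCTctttac
PCDHB13: cctgtgaggacgcgtggtggCGCTgcagga
PCDHB14: aacatggagacacatggtggCGCTacagga
PCDHB16: tcagtgagaacgcgtggtggCGCTgcaggt
PCDHGA5: ctggttaggactctgagtgtCGCTgttgac
PCDHGA11: taagaatgggctctaggcgcCGCTgctcac
PCDHGB6: cgcacggagcctctgggcgcCGCTgtcggc
CGCT lay on this strand in the last 100 bases of 44 of 47 protocadherin promoters, 93.6%, against 28.2% of the 34961 promoters of the table. On both strands and over the whole window it was in 46 of 47, 97.9%, against 70.1%. The promoter window of PCDHA9, whose start lay in an eGFP-YAP sorbitol anchor, held no CGCT. Those of PCDHB8 and PCDHGB2 held it, but not on this strand in the last 100 bases. The element lay at a median of 59 bases before the start (range 11 to 95).

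The 2 letters before CGCT differed between the clusters. In the last 100 bases, GTCGCT was in 11 of 13 alpha promoters (84.6%), 2 of 14 beta (14.3%) and 5 of 20 gamma (25%), and in 1.43% of all promoters. GGCGCT was in 0 of 13 alpha, 12 of 14 beta (85.7%) and 2 of 20 gamma (10.0%), and in 4.91% of all. GCCGCT was in 13 of 20 gamma promoters (65.0%) and in 0 of the alpha and beta promoters, and in 4.55% of all. These strings contain CGCT and were searched on the strand of the gene only. Genes of the same cluster share descent, so these counts are not independent. The CTCF core motif with at most 1 mismatch was in 1 of 47 promoters (2.13%), that of PCDHB9, against 2.78% of all. At the alpha genes the matches of that motif, with at most 1 mismatch, were thus in coding exons and not in the promoter windows (0 of 13). The lack of a match does not show that the promoters lack CTCF sites. The PCDHB9 match, at chr5:141187079-141187092, overlapped the CGCT of that promoter. Whether the CGCT element is a CTCF site was not tested.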

How the data were processed

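In situ Hi-C loop lists of 4 conditions were analysed; the other 18 of 32 samples were not used here. The headers of the deposited lists are those of the SIP loop caller. The deposited anchor coordinates are in bases on hg38, the build per the labels. The deposited peak score is the authors' value for a loop, with no fixed scale, and was ranked only within its list. The probability of enrichment that the authors deposited is a fraction and reached at least 0.9. Aligner, caller settings, sequencing depth and the replicates behind each list are not given in the sources used here. All columns used belong to a condition (0 exceptions).

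Lists were assigned to conditions by name. Coordinates are printed counting from 1. Loops matched when both anchor centres lay within 10 kb, and positions across lists were joined through such matches. Genes were those of GENCODE release 44, with the start taken at the 5′ end. The CTCF core motif, of 14 letters, was searched on both strands. Shares have Wilson intervals, ratios of counts exact intervals and medians intervals from order statistics. They treat loops as independent, which neighbouring loops are not. Matching and motif search were tested on simulated data. Python 3.11.15, pandas 2.3.3, numpy 2.4.6, scipy 1.17.1 and matplotlib 3.10.9 were used.

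The members, lists and comparisons were chosen with earlier results of these data known. The rule named all sorbitol loops of the window, the control loops found in at least 2 lists, and in each control list the 5 highest by score percentile, the longest and the highest of each pair of regions. The remaining control loops with an anchor in a cluster, and the letters before CGCT, were added after their values were seen. Alternatives were other window rules, a score and a probability minimum, matching at 0 and 25 kb, shortened control lists, merged neighbours, wider anchors, stricter or looser motif matching and clusters assigned by the nearest gene start.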

Additional observations from a re-analysis of the deposited data

Results flagged for a closer look

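For 13 measures the value with sorbitol was set against that in control in each line, and for 3 of them the lines moved in opposite directions. The number of protocadherin loops with sorbitol minus that in control was 1 for the wild-type lists and -5 in the eGFP-YAP lists. The median score percentile of these loops with sorbitol minus that in control was 11 for wild type and -13.2 for eGFP-YAP. The share of their anchors with a CTCF motif match with sorbitol minus that in control was 9.0 percentage points in wild type and -1.61 in eGFP-YAP. The signs rest on the settings used. With both anchors in the window, or an anchor overlapping a cluster, the wild-type count fell too (9 to 7 and 8 to 4), as it did at a probability of at least 0.95 (12 to 11). Under the same pair of window rules the percentiles turned, from 58.5 to 52 and from 59.7 to 48.7 in wild type, and from 66.8 to 73.4 and from 68.1 to 71.3 in eGFP-YAP. With no motif mismatch the motif share was higher with sorbitol in both lines (10% to 12% and 10.8% to 15.6%), and with anchors widened by 5 kb the signs turned (55% to 52% and 56.8% to 59.4%). These differences between lines were not tested, because a condition has 1 list, and line and source cannot be told apart.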

How the results depend on the processing

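Under the alternative settings 109 values stayed within counting error (for counts, within 1.5 times) and 69 values moved further; the cause was not tested except where stated. Values follow the order wild-type control, wild-type sorbitol, eGFP-YAP control, eGFP-YAP sorbitol, and a list left out stayed within these limits. Requiring both anchors in the window gave 7, 10 and 9 loops in the last 3 lists and a median span of 162.5 kb in eGFP-YAP control. Requiring an anchor that overlaps a cluster gave 4, 9 and 8 loops in these lists, and 44.4% of the eGFP-YAP control loops in the other line. Loops at or above the median score of their list numbered 5, 6, 12 and 9, by construction fewer, with a median percentile of 75.2 in eGFP-YAP control.

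Identical anchors lowered the share called in the other line to 8.33%, 0%, 4.17% and 0%, and the share called again to 0% (wild type) and 4.17% (eGFP-YAP). They raised the share with no control partner to 100% and 94.7%. At 25 kb the shares in the other line were 61.5% and 52.6% for the sorbitol lists (whole lists 35.7% and 37.7%), those called again 41.7% in both lines, and 36.8% of eGFP-YAP sorbitol loops had no partner. Shortened control lists left 2 and 7 loops, ratios of 6.5 and 2.71, 100% of the 2 wild-type loops in the other line, 50% called again in wild type, and 94.7% of eGFP-YAP sorbitol loops with no partner.

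With no motif mismatch, 10.8% of eGFP-YAP control anchors held a match, and 1 of 1 and 2 of 2 eGFP-YAP loops had motifs pointing towards each other. Anchors widened by 5 kb on each side held a match in 55%, 52%, 56.8% and 59.4%, a coding gene start in 60%, 46% and 62.5% (last 3 lists), and the starts of 14, 7, 15 and 14 protocadherin genes; motifs pointed towards each other in 1 of 2, 1 of 2, 5 of 5 and 2 of 5 loops. With 2 mismatches, added after seeing the data, 17.1% of all promoters held the CTCF motif, against 8.51% of the protocadherin promoters.

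When an anchor was given to the cluster of the nearest gene start within 100 kb, 3, 3, 2 and 3 loops joined alpha to beta or gamma, 2, 3, 4 and 5 joined beta to gamma, loops with an anchor in alpha numbered 4, 9 and 5 in the last 3 lists, those in beta 5, 5 and 8 and those in gamma 6, 4 and 6 in wild-type control, wild-type sorbitol and eGFP-YAP sorbitol. By construction this rule gives anchors in the gaps to a cluster, so the separation of alpha from beta and gamma holds for gene bodies only.

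No paired analysis was possible because each list is pooled and carries no replicate, and no replicate could be left out. Counts of 1 to 24 loops per list, on lists of unknown depth, limit every value given here.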
